A study of Homo sapiens with 18 samples.

Results

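The AP-1 transcription factor was followed through its 7 subunit genes, JUN, JUNB, JUND, FOS, FOSB, FOSL1 and FOSL2, in MSTO-211H, a cell line established from a human malignant mesothelioma. Its members were all probe sets of the HGU133A array whose only gene symbol in the platform annotation is the symbol of a subunit, which gave 14 of 22283 probe sets, and 7 of the 11963 genes named in this way. JUN has 4 of them, JUND and FOSL2 have 3 each, and FOS, FOSB, FOSL1 and JUNB have 1 each. Cells had been exposed to 760 µM piroxicam, a cyclooxygenase inhibitor, together with 4.5 µg/mL cisplatin, a platinum drug that forms DNA adducts (P/C), to piroxicam alone (P), to cisplatin alone (C), or to no drug. RNA of each culture was hybridised to 1 array. Every group had 2 arrays at 8 h. At 24 h P/C had 2, P had 3, C had 3 and untreated cells had 2. All 4 groups are cultures of the same line, the untreated cells are the control of every treatment, and the 24 h effects of all drugs are measured against the same 2 arrays. Comparisons with untreated cells asked which genes each drug changed, and those of P/C with P or C asked what the second drug added.

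AP-1 is a dimer of proteins that join through a leucine zipper and bind DNA through a basic region. JUN proteins pair with each other or with FOS proteins, whereas FOS proteins need a JUN partner, and the dimers bind the sequence TGACTCA or, with partners of the ATF family, TGACGTCA. Growth factors and stress act on AP-1 through MAP kinases, which both phosphorylate the subunits and raise transcription of several of their genes. FOS and FOSB are known as immediate-early genes whose transcripts last only briefly, JUND is known to be expressed more steadily than JUN and JUNB, and FOSL1 has been described as an AP-1 subunit of rat mesothelial cells exposed to asbestos.

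The deposited values were log2 signals, in which the array medians lay between 2.72 and 2.83 and 14.95% to 16.8% of the probe sets of an array reached a signal of 100, a log2 signal of 6.64. A probe set was tested if its interquartile range was 0.25 or more and its signal reached 100 on 25% or more of the arrays, which held for 3057. It was called changed where the adjusted p did not exceed 0.05 and the log2 fold change was 1 or more in either direction (limma, all 18 arrays in 1 fit). Of 11 mesothelial and mesothelioma markers, KRT8 and KRT18 had a signal of at least 100 on all arrays, and the other 9, among them MSLN, CALB2 and WT1, reached it on no array. None of the 6 leukocyte and erythroid markers on the array reached it, and of 8 fibroblast and endothelial markers only COL3A1 did, on 4 arrays. The ACTB probe sets at the 3′ and 5′ ends, whose difference grows as RNA is degraded, differed by 0.80 to 1.88 on the log2 scale. The weights that limma gave the arrays were lowest for C replicate 1 at 24 h (0.388) and the P/C arrays at 24 h (0.463 each).

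Of the 7 subunits, 3 had a probe set bright enough to be tested. FOSL1 had a signal of at least 100 on all 18 arrays, JUND on 13 and JUN on 11, each through a single probe set. The other 11 probe sets did not reach that signal on any array. FOS and FOSB lay below the array median on all 18 arrays, at log2 signals of 1.85 to 2.30 and of 2.02 to 2.37. JUNB lay between 3.13 and 4.48 and the brightest probe set of FOSL2 between 3.12 and 5.23, above the median of every array but under a signal of 100. The probe sets of a gene were not equally bright, as JUN ranged from 6.10 to 7.13 on 201464_x_at and from 1.97 to 2.60 on 213281_at. For JUND the 2 dimmer probe sets lay at 2.10 to 2.62 and 2.15 to 3.18. Signals of different probe sets depend on their probes, so their levels were not compared with each other. The suffix x_at marks a probe set with probes that can bind transcripts of other genes.

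**Figure D1:**
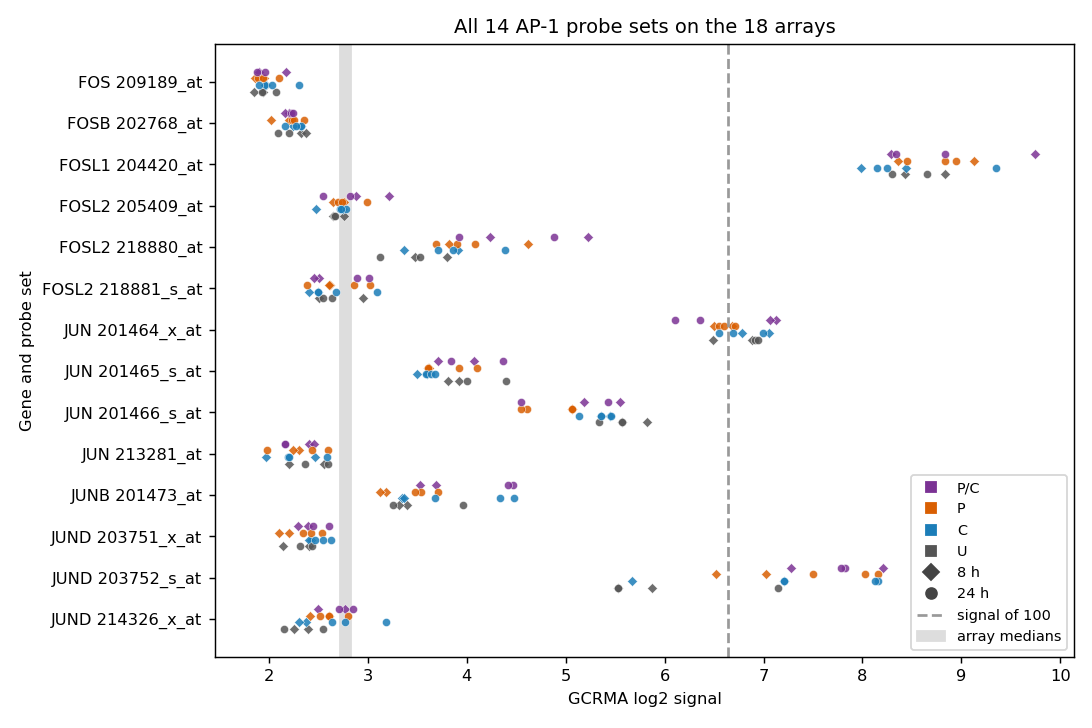
Log2 signal (horizontal axis) of the 14 AP-1 probe sets (rows) on each of the 18 arrays, coloured by treatment, with diamonds for 8 h and circles for 24 h; the dashed line is a signal of 100 and the grey band the range of the array medians, 2.72 to 2.83. Only FOSL1, JUN 201464_x_at and JUND 203752_s_at reach the dashed line, and FOS and FOSB lie left of the band on every array.

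Over the 16 comparisons made, JUND with P at 24 h was the only call of an AP-1 probe set. There 1 of the 3 tested AP-1 probe sets was called, a rise, beside 14.6% of all 3057 in either direction and 3.14% that rose. In the other comparisons none of the 3 was called. Over all tested probe sets 0.491% were called with P, 0.622% with P/C and 0% with C at 8 h, and 6.87% with P/C and 0% with C at 24 h. At an unadjusted p under 0.05 in the fit of all probe sets, 2 of the 14 AP-1 probe sets passed for P, 0 for C and 4 for P/C at 8 h. At 24 h 2, 4 and 5 passed, in the same order. Among the 3057 tested probe sets, in their own fit, this limit was met by 293, 35 and 362 at 8 h. At 24 h it was met by 1258, 421 and 901, again for P, C and P/C in turn. Most of the 14 had not passed the filter that all of the 3057 had passed. Over the arrays with piroxicam against those without at 8 h 1.9% of all tested probe sets were called. There 3 of the 14 passed at that unadjusted p, beside 589 of the 3057. Over the arrays with cisplatin against those without it was 0% and 2 of the 14, beside 48 of the 3057. Between treatments at 24 h the share of calls was 0.164% for P/C against P, 0.0981% for P/C against C and 10.9% for P against C. In each, 2 of the 14 passed at that unadjusted p. It was passed by 608, 453 and 1160 of the 3057, in that order. For the interaction of the drugs at 24 h, taken as P/C minus P minus C plus untreated, the share of calls was 0%. At the unadjusted p 2 of the 14 passed, beside 426 of the 3057. Untreated cells at 24 h against 8 h gave 0.0981% and 0 of the 14, beside 170 of the 3057. The change of a drug effect between 8 h and 24 h gave 0.196% and 1 of the 14 for P, 0% and 0 for C, and 0.0654% and 1 for P/C. Of the 3057 tested probe sets, 387, 78 and 323 passed the unadjusted p, in that order. The median change of the 14 probe sets was 0.10 on the log2 scale with P, 0.11 with C and 0.10 with P/C at 24 h, against medians of 0.03, 0.01 and 0.00079 over all 22215 probe sets that are not controls.

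**Figure D2:**
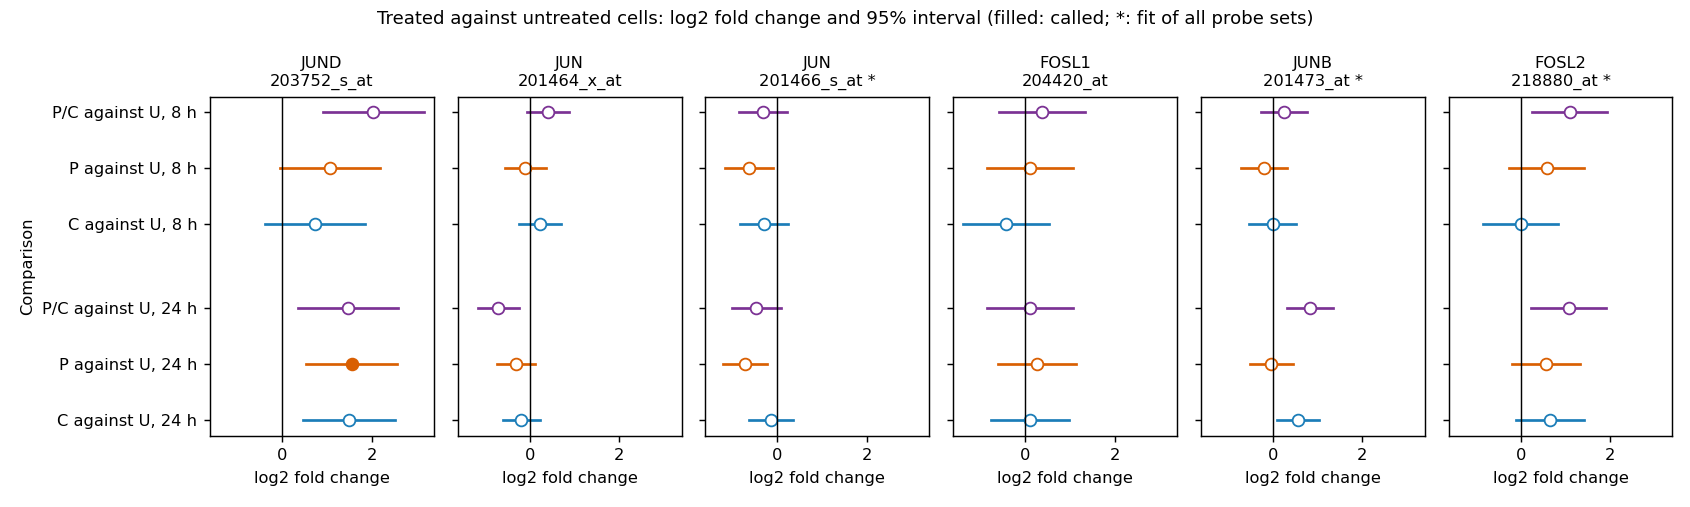
Log2 fold change of treated against untreated cells (horizontal axis) with its 95% interval from the moderated fit, for 6 AP-1 probe sets (panels) and 6 comparisons (rows). The filled point is the only call, JUND with P at 24 h, and an asterisk marks a probe set that did not pass the filter and was taken from the fit of all probe sets.

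Among the JUN proteins, JUND is the subunit known to restrain growth in many cells and to bind the tumour suppressor menin. Its RefSeq promoter is shown because JUND carried the only call, and that of JUN because JUN is the other tested member of the family. Both are the 250 bases before the transcription start in GRCh38.p14, JUND at chr19:18281623-18281872 and JUN at chr1:58784048-58784297, each on the minus strand and written 5′ to 3′. Capitals mark the ATF-type element TGACGTCA in JUND, at positions −200 to −193 from the start, and its variant TGACATCA in JUN, at −67 to −60.
JUND: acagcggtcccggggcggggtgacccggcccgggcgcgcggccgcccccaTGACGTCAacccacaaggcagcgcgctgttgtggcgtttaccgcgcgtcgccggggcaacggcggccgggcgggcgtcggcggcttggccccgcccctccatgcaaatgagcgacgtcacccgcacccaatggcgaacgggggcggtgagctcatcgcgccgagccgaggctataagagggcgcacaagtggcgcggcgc
JUN: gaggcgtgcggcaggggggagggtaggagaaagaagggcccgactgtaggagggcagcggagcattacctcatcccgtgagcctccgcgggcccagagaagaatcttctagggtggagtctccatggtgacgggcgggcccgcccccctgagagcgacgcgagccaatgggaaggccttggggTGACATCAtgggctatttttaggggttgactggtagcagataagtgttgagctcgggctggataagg
A promoter could be matched for 6 of the 7 subunits, all but FOSL1. On either strand the 250-base windows of 35116 RefSeq promoters held TGACGTCA, which reads the same on both strands, in 1.65% and TGACATCA in 2.37%. Neither was found in the other promoters of the 6, and the AP-1 element TGACTCA, held by 4.2% of all promoters, was found in none of the 6. These letters are a match and not a measured binding site.

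After 24 h JUND lay higher on every treated array than on either untreated array. With P its log2 signals were 8.03, 8.15 and 7.50, against 7.15 and 5.53 in untreated cells. All P arrays lay above both untreated arrays, and the untreated arrays lay far apart. The rise was 1.56 on the log2 scale (SE 0.48, 95% interval 0.53 to 2.58, adjusted p = 0.0264, limma). The call rested on single arrays. Without untreated replicate 2 the change was 0.75 (adjusted p = 0.385), and without P replicate 1 or P replicate 2 it was 1.49 (adjusted p = 0.0618) or 1.43 (adjusted p = 0.0725). With no filter on low values the adjusted p was 0.0934. As an array measures the RNA of the whole culture, more RNA per cell and a changed mix of cells cannot be told apart.

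**Figure D3:**
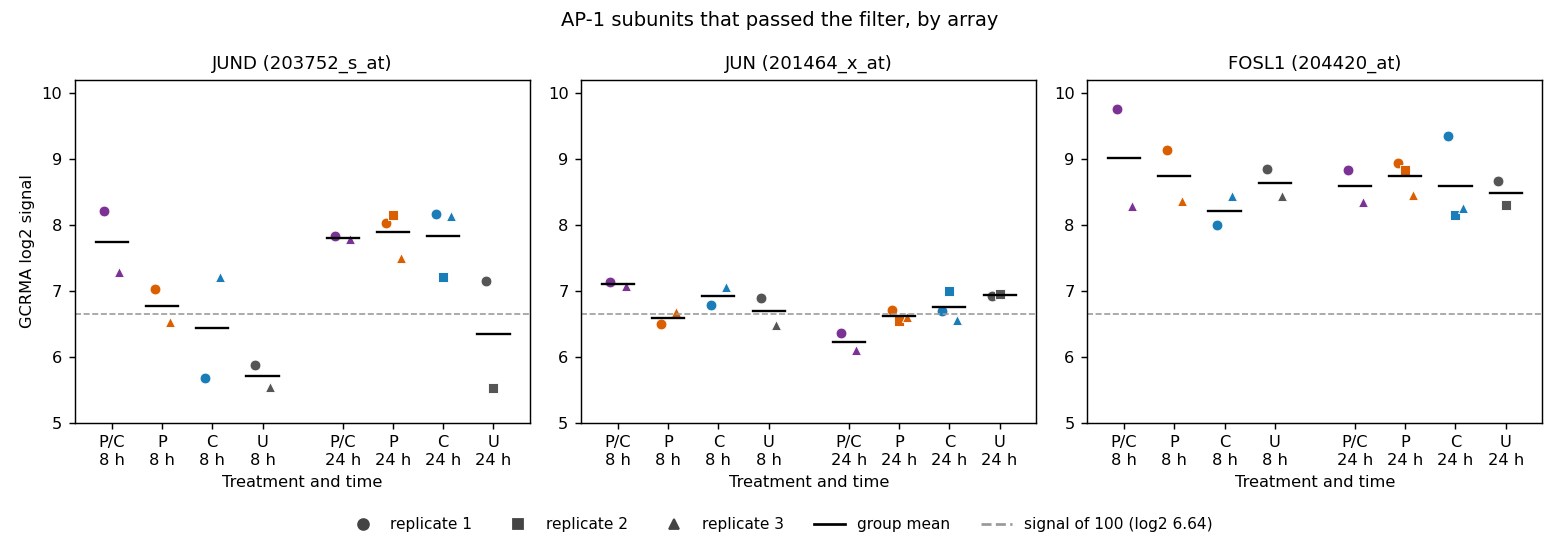
Log2 signal (vertical axis) of JUND, JUN and FOSL1 (panels) on each array by treatment and time, with a symbol for the replicate number, a black bar for the group mean and a dashed line at a signal of 100. For JUND the untreated arrays at 8 h lie under the line and those at 24 h at 7.15 and 5.53, whereas all treated arrays at 24 h lie above the line.

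With C at 24 h JUND had log2 signals of 8.16, 7.21 and 8.13, against the same 7.15 and 5.53 in untreated cells. No array of the groups overlapped, but the lowest C array stood just above the higher untreated array. The difference was 1.49 (SE 0.48, 95% interval 0.47 to 2.52, adjusted p = 0.260). Leaving out 1 array it ran between 0.68 (adjusted p = 0.807) without untreated replicate 2 and 2.30 (adjusted p = 0.155) without untreated replicate 1. With P/C the 2 arrays stood close together at 7.83 and 7.79, both above the untreated arrays, with a difference of 1.47 (SE 0.53, 95% interval 0.35 to 2.59, adjusted p = 0.0813). This difference was 0.66 (adjusted p = 0.590) without untreated replicate 2 and 2.28 (adjusted p = 0.0301) without untreated replicate 1. No difference between treatments was called, and the intervals were wide, as P/C minus P was −0.09 (95% interval −1.11 to 0.93), P/C minus C was −0.03 (95% interval −1.05 to 1.00) and P minus C was 0.06 (95% interval −0.85 to 0.98). The interaction of the drugs was −1.58 (SE 0.68, adjusted p = 0.323), −0.77 without untreated replicate 2 and −2.39 without untreated replicate 1.

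The untreated arrays at 24 h differed widely in JUND. Replicate 1 exceeded replicate 2 by 1.62 on the log2 scale, more than the pair differed in 99.5% of the tested probe sets, whose median absolute difference was 0.263. On these arrays the ACTB 3′ to 5′ difference was 0.81 in replicate 1 and 1.45 in replicate 2. It was 0.80 to 1.06 in the P arrays at 24 h, 0.84 to 1.08 in the C arrays and 0.85 to 0.94 in the P/C arrays. Over all 18 arrays the 13 with a JUND signal of at least 100 had ACTB differences of 0.80 to 1.60 with a median of 1.04, and the 5 below it had 0.81 to 1.88 with a median of 1.45. For GAPDH the medians were 0.23 and 0.44. The part of RNA quality in the JUND values was not tested.

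At 8 h JUND stood highest with P/C, at log2 signals of 8.21 and 7.28, against 5.87 and 5.53 in untreated cells. The groups did not overlap, and the difference was 2.04 (SE 0.53, 95% interval 0.92 to 3.16, adjusted p = 0.111). In a fit of these 4 arrays alone the adjusted p was 0.0383, and none of the other 10 alternatives called it. Without P/C replicate 1 it was 1.58 (adjusted p = 0.498). With P alone the signals were 7.03 and 6.52, also above both untreated arrays, with a difference of 1.07 (SE 0.53, adjusted p = 0.557). With C alone the arrays fell on either side, at 5.67 and 7.21, with a difference of 0.74 (SE 0.53, adjusted p = 0.9995) that was −0.032 without C replicate 3. Over the 4 arrays with piroxicam against the 4 without, JUND differed by 1.19 (SE 0.37, adjusted p = 0.0783), by 0.80 without C replicate 1 (adjusted p = 0.314) and by 1.57 without C replicate 3 (adjusted p = 0.0426).

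Ordered by mean log2 signal, JUND was at 5.70 in untreated cells at 8 h, 6.34 in untreated cells at 24 h, 6.44 with C at 8 h, 6.77 with P at 8 h, 7.75 with P/C at 8 h, 7.81 with P/C at 24 h, 7.83 with C at 24 h and 7.89 with P at 24 h. The spread of arrays within groups was 0.627 (pooled SD). Neighbours in this order differed by more than that spread only between the untreated groups of the 2 times and between P and P/C at 8 h. The dimmer JUND probe set 214326_x_at, near the array median, differed from untreated cells at 24 h by 0.29 with P (adjusted p = 0.422), where the arrays overlapped, by 0.51 with C (adjusted p = 0.442) and by 0.43 with P/C (adjusted p = 0.293). On 203751_x_at, below the array medians throughout, the differences were 0.06 with P (adjusted p = 0.861), 0.17 with C and 0.15 with P/C.

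JUN, the substrate after which the kinase JNK is named, was measured by 201464_x_at close to a signal of 100 in all groups. After 24 h with P/C its log2 signals were 6.35 and 6.10, against 6.91 and 6.95 in untreated cells. Both P/C arrays lay below both untreated arrays and were the lowest of all 18. The difference was −0.70 (SE 0.22, 95% interval −1.16 to −0.24, adjusted p = 0.0508), under the limit of 1. At 8 h the order was turned on this probe set, at 7.13 and 7.07 with P/C, against 6.89 and 6.49 in untreated cells. The difference was 0.41 (SE 0.22, adjusted p = 0.487), and 0.21 without untreated replicate 3. The P/C effect at 24 h minus that at 8 h was −1.11 (SE 0.31, adjusted p = 0.276).

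With the single drugs JUN was not called on this probe set. After 24 h it was at 6.71, 6.55 and 6.60 with P and at 6.70, 6.99 and 6.55 with C, against 6.91 and 6.95 in untreated cells. All P arrays lay below the untreated ones, whereas the C arrays spanned them. The differences were −0.31 with P (adjusted p = 0.249) and −0.18 with C. P/C differed from C by −0.52 (adjusted p = 0.235) and from P by −0.39 (adjusted p = 0.288). In the order of group means P/C at 24 h was lowest at 6.23, next came P at 8 h at 6.59, and P/C at 8 h was highest at 7.10, with a spread within groups of 0.168 (pooled SD). The gap between the lowest and the next group, 0.364, was larger than that spread.

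The JUN probe set 201466_s_at, which did not reach a signal of 100, gave values for the same gene from other probes. With P at 24 h it was at 4.60, 5.07 and 4.55, against 5.57 and 5.34 in untreated cells, so that every P array was lower. The difference was −0.71 (SE 0.23, adjusted p = 0.0904 in the fit of all probe sets, of which 3.52% were called in this comparison). With P at 8 h it was −0.63 (adjusted p = 0.701). With P/C at 8 h the arrays were at 5.19 and 5.55, below the untreated 5.57 and 5.82 and so opposite to 201464_x_at. That difference was −0.33 (adjusted p = 0.992), and on 201465_s_at it was 0.03, with overlapping arrays. With P/C at 24 h the arrays were at 5.42 and 4.55 and overlapped the untreated ones, unlike on 201464_x_at. On 201465_s_at the difference was −0.56 with C at 24 h (adjusted p = 0.435), and the interaction of the drugs was 0.79 (adjusted p = 0.423).

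JUNB, a subunit that can oppose JUN at some promoters, was dim on its 1 probe set. At 24 h its log2 signals were 4.46 and 4.41 with P/C, 3.71, 3.54 and 3.47 with P, and 3.68, 4.48 and 4.33 with C, against 3.96 and 3.25 in untreated cells. Both P/C arrays lay above all P and all untreated arrays. P/C differed from P by 0.86 (SE 0.22, adjusted p = 0.109) and from untreated cells by 0.83 (SE 0.24, adjusted p = 0.102). With C the difference from untreated cells was 0.56 (adjusted p = 0.523). Without untreated replicate 2 these differences from untreated cells were 0.48 with P/C (adjusted p = 0.678) and 0.20 with C. P minus C was −0.59 (adjusted p = 0.105). At 8 h all 8 arrays lay between 3.13 and 3.69.

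Among the FOS proteins, FOSL1, also called FRA1, was the member with a signal of at least 100 on every array. At 24 h its log2 signals were 8.83 and 8.34 with P/C, 8.94, 8.84 and 8.45 with P, and 9.35, 8.15 and 8.25 with C, against 8.66 and 8.30 in untreated cells. Every treated group overlapped the untreated arrays. The differences were 0.11 with P/C (95% interval −0.85 to 1.07, adjusted p = 0.893), 0.26 with P (−0.61 to 1.14, adjusted p = 0.656) and 0.10 with C (−0.77 to 0.98, adjusted p = 0.927). The direction of the C and P/C values changed when single arrays were left out, so no direction is given for them. At 8 h the signals were 9.75 and 8.29 with P/C, 9.13 and 8.36 with P, and 7.99 and 8.44 with C, against 8.84 and 8.43 in untreated cells. The group means ran from 8.21 with C at 8 h to 9.02 with P/C at 8 h, and no neighbours in that order differed by more than the spread within groups of 0.524 (pooled SD).

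FOSL2, or FRA2, lay above the array medians on 218880_at, under a signal of 100. At 8 h its log2 signals were 5.23 and 4.23 with P/C, 3.81 and 4.62 with P, and 3.36 and 3.91 with C, against 3.47 and 3.797 in untreated cells. Both P/C and both P arrays lay above the untreated ones. The difference was 1.09 with P/C (SE 0.39, adjusted p = 0.541), and 0.84 for the arrays with piroxicam against those without (adjusted p = 0.208). At 24 h the P/C arrays were at 4.88 and 3.92, against 3.53 and 3.12 in untreated cells, a difference of 1.08 (adjusted p = 0.195). Without P/C replicate 1 the P/C difference was 0.59 at either time, and without P/C replicate 3 it was 1.59 at 8 h and 1.56 at 24 h. Its other probe sets lay at 2.47 to 3.21 and 2.39 to 3.09, around the array median.

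FOS and FOSB, the immediate-early members, stayed at the low end of the arrays at both times. FOS had log2 signals of 1.88 and 1.96 with P/C, 1.89, 1.93 and 2.10 with P, and 2.02, 2.30 and 1.90 with C at 24 h, against 1.93 and 2.07 in untreated cells. FOSB had 2.22 and 2.24 with P/C, 2.23, 2.25 and 2.35 with P, and 2.16, 2.32 and 2.28 with C at 24 h, against 2.20 and 2.09 in untreated cells. All of these signals were below the array medians, and no difference passed the test. RNA was taken at 8 h and 24 h only, so earlier times were not measured.

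Across the 18 arrays Pearson's r was 0.47 between FOSL1 and JUND, 0.07 between FOSL1 and JUN and −0.18 between JUN and JUND, given as a description, as the arrays share treatments and times. Over the 8 group means the tested genes most like JUND were CAPNS1, a calpain subunit (r = 0.965), EIF2AK1, the heme-regulated eIF2α kinase (r = 0.963), and POLR2E, a subunit of RNA polymerases (r = 0.963). Over the 18 arrays their r with JUND was 0.925, 0.883 and 0.830. For JUN they were CHMP5 (r = 0.935), CNPY2 (r = 0.920) and NDUFB3 (r = 0.911), with r of 0.359, 0.355 and 0.677 over the 18 arrays. For FOSL1 the first was POLR2I (r = 0.976 over the group means and 0.691 over the arrays).

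The genes around AP-1 were taken from 5 lists, and several of them changed with piroxicam. Of 14 leucine zipper proteins that can pair with AP-1 subunits or share their sites, 11 are on the array and 3, ATF3, ATF4 and MAFF, were tested, and of 14 kinases and factors upstream 11 are on the array and 4 were tested. Of 4 genes whose proteins act on AP-1 proteins 2 are on the array and none was tested. Of 12 immediate-early genes 6 were tested and of 16 known AP-1 targets 4. With P at 24 h the 3 partners had 1 rise, the 4 upstream genes 1 fall, the 6 immediate-early genes 1 rise and the 4 targets 1 rise and 1 fall, beside 14.6% of all tested probe sets called and 3.14% that rose. With P/C at 24 h 1 partner and 1 immediate-early gene rose and none fell. Over all 3057 tested probe sets 6.87% were called there, 81 higher and 129 lower. In the 8 h comparison of arrays with and without piroxicam 1 partner and 1 immediate-early gene rose, beside 1.9% called over all, 24 higher and 34 lower. The list medians with P at 24 h were −0.52 for the upstream genes, −0.10 for the immediate-early genes and 0.14 for the targets, against −0.22 over all tested probe sets. With C at 24 h and in the cisplatin comparison at 8 h none of these 17 genes was called, and neither was any other tested probe set (limma). At an unadjusted p under 0.05 there were 421 of 3057 with C at 24 h and 48 in the 8 h comparison. The absence of calls with C at 24 h depended on C replicate 1. With array weights, which were lowest for that array, 134 of the 3057 were called with C at 24 h. A similar number were called when that array was left out. No alternative that kept it without array weights called more than 5.

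ATF3, a stress-induced partner of JUN proteins, showed the largest changes of these lists. At 24 h its log2 signals were 9.52 and 7.80 with P/C, 7.17, 6.86 and 6.35 with P, and 5.09, 9.27 and 9.18 with C, against 4.67 and 4.01 in untreated cells. All treated arrays lay above both untreated ones, and C replicate 1 stood far below the other C arrays. It rose by 4.32 with P/C (SE 0.95, adjusted p = 0.0154) and by 2.45 with P (SE 0.87, adjusted p = 0.0446), and with C the difference was 3.51 (SE 0.87, adjusted p = 0.199). The call with P was lost without any of the 5 arrays compared (adjusted p 0.0693 to 0.243), with no filter (adjusted p = 0.160) and with a replicate block (adjusted p = 0.0685). That with P/C was lost without untreated replicate 2 (adjusted p = 0.174) or P/C replicate 1 (adjusted p = 0.0568) and with no filter (adjusted p = 0.0526).

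ATF4, the stress-response factor that can pair with FOS and JUN proteins, was bright on all arrays. At 8 h it was at 10.14 and 10.02 with P/C and at 9.92 and 9.88 with P, against 8.59 and 9.08 with C and 8.76 and 8.996 in untreated cells. The 4 arrays with piroxicam did not overlap the 4 without, and the difference was 1.13 (SE 0.22, adjusted p = 0.00819). Without C replicate 1 the adjusted p was 0.0541. At 24 h with P it was 0.97 higher (adjusted p = 0.0200) but under the fold limit of 1, and not called. The median of the 3 tested partners was 1.13 for piroxicam at 8 h and 0.97 with P at 24 h, against −0.05 and −0.22 over all tested probe sets.

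**Figure D4:**
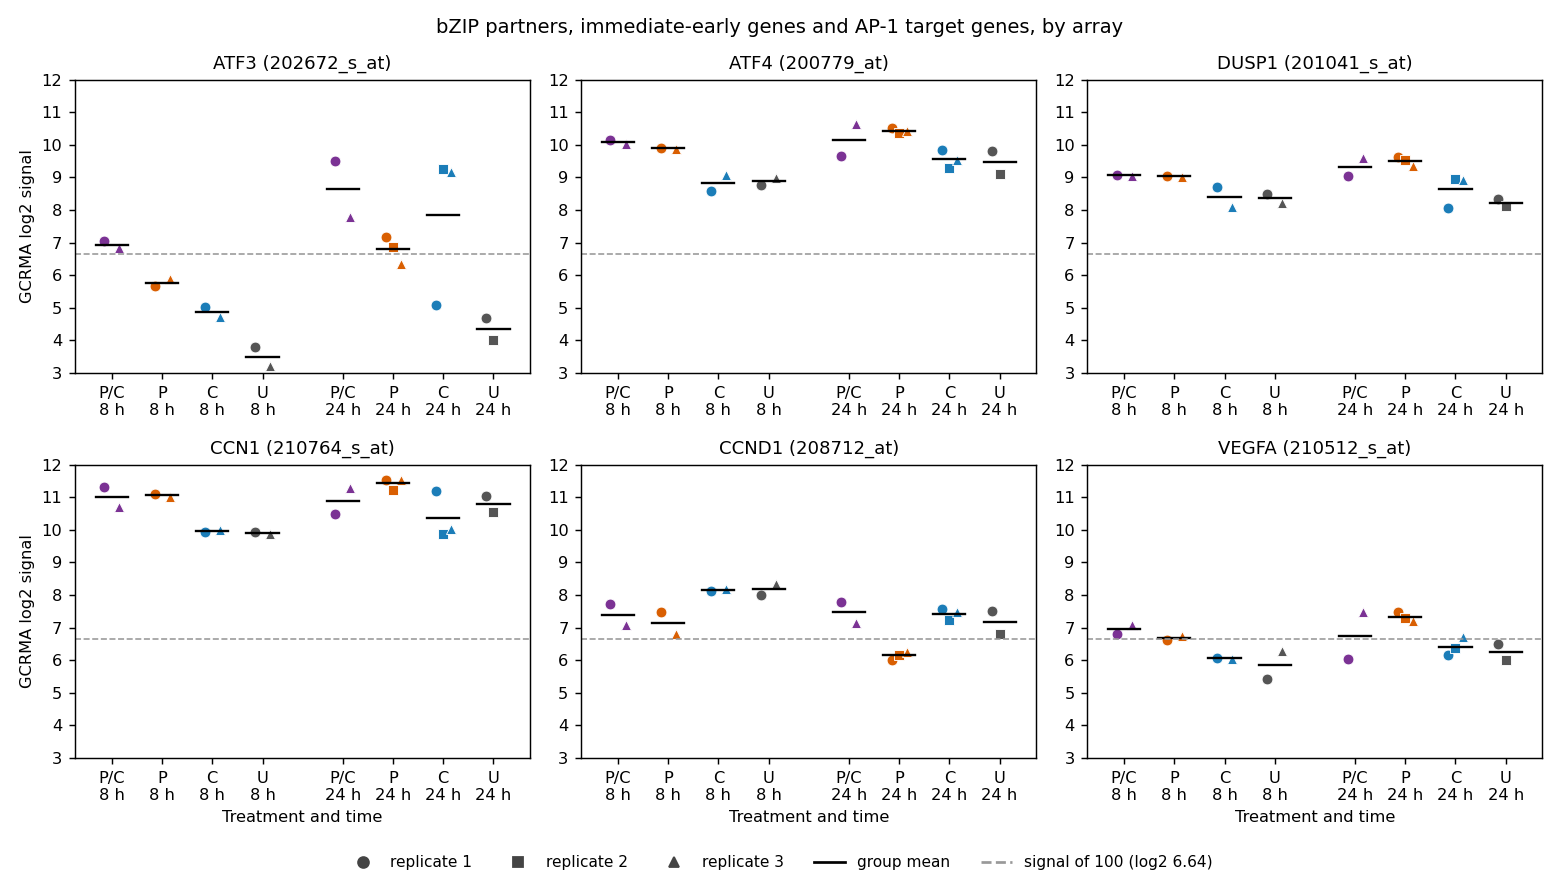
Log2 signal (vertical axis) of 6 genes of the AP-1 lists (panels) on each array by treatment and time, with a symbol for the replicate number, a black bar for the group mean and a dashed line at a signal of 100. ATF4 and CCN1 lie higher on all 4 arrays with piroxicam at 8 h than on the 4 without, and CCND1 lies lower on the 3 P arrays at 24 h than on the C arrays.

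Upstream of AP-1, MAP2K1, the kinase MEK1 that activates ERK, fell with P at 24 h. Its log2 signals were 6.68, 6.28 and 6.69 with P, against 7.46 and 7.71 in untreated cells, with no overlap and a difference of −1.04 (SE 0.20, adjusted p = 0.00187). The fold change was within 1 without untreated replicate 2 (−0.91), without P replicate 2 (−0.90) and with array weights (−0.998). In this comparison the median over all tested probe sets was −0.22, and after quantile normalization or centring, which bring it to −0.06 or −0.01, MAP2K1 was at −0.85 or −0.83. MAP2K2, MAPK9 and ELK3 were not called, at 0.75, −0.47 and −0.56.

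Among the immediate-early genes DUSP1, a phosphatase that inactivates MAP kinases, rose with P. At 24 h it was at 9.05 and 9.61 with P/C and at 9.62, 9.52 and 9.35 with P, against 8.33 and 8.13 in untreated cells. No treated array of these groups overlapped the untreated ones. It rose by 1.27 with P (SE 0.27, adjusted p = 0.00395) and by 1.10 with P/C (SE 0.30, adjusted p = 0.0335). Without untreated replicate 2 the adjusted p with P was 0.0529. With P/C the call was lost without either untreated array (adjusted p = 0.0650 and 0.239), without P/C replicate 3 (adjusted p = 0.182), with a replicate block (adjusted p = 0.0622), and with no filter, array weights or only the arrays compared (adjusted p 0.0706 to 0.124).

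CCN1, a secreted matrix protein, was at 11.32 and 10.70 with P/C and at 11.10 and 11.02 with P at 8 h, against 9.93 and 9.99 with C and 9.94 and 9.89 in untreated cells. The arrays with piroxicam lay above those without by 1.10 (SE 0.26, adjusted p = 0.0268), and 7 of the 8 fits that each left out 1 array lost the call, with adjusted p values up to 0.101, as did that with no filter (adjusted p = 0.0636). At 24 h CCN1 was higher with P than with C by 1.07 (SE 0.30, adjusted p = 0.0198), a call lost without P replicate 1 or 3 or C replicate 2 or 3 (adjusted p 0.0619 to 0.0927) and with no filter (adjusted p = 0.0587). IER3, a survival factor induced by stress, was lower with P than with C, at 8.18, 8.28 and 8.36 with P, against 8.79, 9.66 and 9.40 with C. The difference was −1.01 (SE 0.25, adjusted p = 0.0101), and it was within 1 without P replicate 1 (−0.96), C replicate 2 (−0.82) or C replicate 3 (−0.95), and after quantile normalization (−0.91) or centring (−0.89).

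Of the tested AP-1 targets CCND1, the G1 cyclin D1, was lowest with P at 24 h. Its log2 signals were 6.01, 6.17 and 6.26 with P, against 7.57, 7.24 and 7.49 with C and 7.52 and 6.82 in untreated cells. P arrays overlapped neither group. The P/C arrays at 24 h were at 7.78 and 7.16. They differed from untreated cells by 0.30 (adjusted p = 0.540) and from P by 1.32 (adjusted p = 0.0538), and neither was called. The change with P was −1.29 against C on the log2 scale (SE 0.25, adjusted p = 0.00295), which held in all 14 alternatives run, and −1.02 against untreated cells (SE 0.28, adjusted p = 0.0145). The second was −0.67 without untreated replicate 1 (adjusted p = 0.170) and −0.95 without P replicate 1, and −0.86 after quantile normalization and −0.81 after centring. VEGFA, the angiogenic growth factor, was at 7.47, 7.30 and 7.19 with P, against 6.49 and 5.999 in untreated cells, a rise of 1.08 (SE 0.34, adjusted p = 0.0297). That call was lost without untreated replicate 2 (0.83, adjusted p = 0.239) or any of the P arrays (adjusted p 0.0548 to 0.0747), with no filter (adjusted p = 0.0879) and with a replicate block (adjusted p = 0.0517). With P/C at 24 h VEGFA was at 6.03 and 7.47, a difference of 0.51 from untreated cells that was not called (adjusted p = 0.383). TIMP1 and CD44 were not called in any comparison with untreated cells, and the collagenase MMP1, under a signal of 100 on all arrays, was not tested. CXCL8, also on the target list, was bright on all 18 arrays, at log2 signals of 10.19 to 10.93. It varied too little to pass the interquartile range limit of 0.25, and so was not tested either.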

How the data were processed

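RNA of untreated and treated MSTO-211H cells was measured on 18 arrays. Per the labels and the study's methods, the authors removed arrays with outlying raw intensity and deposited log2 signals made with GCRMA (background correction, normalization between arrays and probe set summary). Its version is not stated in any source used. Replicates are described as biological, and no source says what a replicate number shares. The members and the gene lists were chosen with earlier results of these data known.

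From the deposited log2 values, the 68 control probe sets and those failing the filter stated in the methods were removed, and a model with a mean per group (8 groups) was fitted with limma 3.58.1 under R 4.3.3 (10 residual and 5.76 prior degrees of freedom). The study reports more probe sets after this filter than the 3057 kept here, so the tested sets differ, and the reason was not tested. Two-sided p values were adjusted after Benjamini and Hochberg over the tested probe sets of each of 16 comparisons. Values of a member outside the filter come from a second fit to 22215 probe sets. The fit to the tested probe sets was tried on simulated data for some of the comparisons, and the second fit was not. SE is the standard error of the fit that gave the value. The number of arrays limits the precision.

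In the platform annotation 19071 probe sets have 1 symbol, 1043 have several and 2169 have none, and genes were named from those with 1. Of the tested ones 2750 have 1. A gene of a list was represented by its probe set with the highest mean over the arrays. All AP-1 probe sets, up to 4 called members of each list with the largest change, and the genes most like each tested member were named. Other genes named with values that were not called were chosen after their values were seen. Deviations from group means of arrays with the same number correlated at 0.20 to 0.66 at 8 h and at −0.22 to 0.39 at 24 h (12 pairs each), and the fit has no replicate block. Alternatives were no filter, a signal minimum of 200, quantile normalization, centring, array weights, a replicate block, only the arrays compared, leaving out each array, and leaving out the P/C and C arrays labelled 1 at 24 h together. Promoters were taken from RefSeq (GRCh38.p14) and searched on both strands.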

Additional observations from a re-analysis of the deposited data

Results flagged for a closer look

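Each of the 14 AP-1 probe sets was screened with each of P, C and P/C. In 3 cases every array of a treatment lay on the opposite side of its untreated arrays at 8 h and 24 h. Groups held only 2 or 3 arrays, and the share of all probe sets that did the same was not counted. For JUN 201464_x_at the P/C effect at 24 h minus that at 8 h was −1.11 on the log2 scale (adjusted p = 0.276, limma). On JUN 201466_s_at both P/C arrays at 8 h lay below the untreated ones, so the turn was not seen there. For FOSB, below the array median throughout, the effect at 24 h minus that at 8 h was 0.37 with P (adjusted p = 0.605) and 0.25 with P/C (adjusted p = 0.905). None of the 3 differences passed the threshold. No group held 4 or more arrays, so single arrays were not screened for standing apart.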

How the results depend on the processing

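Each comparison was counted separately under each of its alternatives. The number of AP-1 probe sets called stayed as given in 211 of these cases and changed in 7, all through JUND. Most of the 211 were counts of 0 that stayed at 0. For P at 24 h, the only comparison with a call, the count stayed at 1 in 8 of 12 alternatives. With P at 24 h the count was 0 with no filter, and 0 to 1 when 1 array was left out. It was 1 with P/C at 8 h in a fit of only the arrays compared. Leaving out 1 array it was 0 to 1 with P/C at 24 h and for piroxicam at 8 h. With a replicate block the JUND change with P at 24 h was 1.54 (adjusted p = 0.0331), and the block changed no count of AP-1 calls. Among the lists it ended the calls of ATF3 and VEGFA with P and of DUSP1 with P/C at 24 h. Directions changed in values that were not called. Leaving out 1 array, JUND ran from −0.032 to 1.505 with C at 8 h, from −0.25 to 0.26 for P minus C, from −0.28 to 0.041 for P/C minus P and from −0.34 to 0.14 for P/C minus C at 24 h. FOSL1 at 24 h ran from −0.28 to 0.32 with C and from −0.14 to 0.35 with P/C. Without both P/C and C arrays labelled 1 at 24 h, JUND for P/C minus C was 0.12, and FOSL1 was −0.28 with C and −0.14 with P/C. With array weights FOSL1 with C was −0.15. Scaling moved the split of calls with P at 24 h, which was 96 higher and 349 lower, to 154 and 239 after quantile normalization and 172 and 223 after centring, and JUND was then 1.72 (adjusted p = 0.0146) and 1.77 (adjusted p = 0.0139). JUN did not pass a signal minimum of 200, and members outside the filter have no value under the filter alternatives. The cause of these changes was not tested. FOS, FOSB and other probe sets near or below the array median are limited by brightness.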
